A study of Homo sapiens with 6 samples.

Results

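The genes described here are 7 genes of plasminogen activation and its control, taken from the 17039 genes of the expression matrix by their symbols: PLAU, PLAT, PLAUR, SERPINE2, SERPINB2, SERPINI1 and SERPIND1. All 7 had a row in the matrix. The list joins the plasminogen activators and the urokinase receptor to serpins proposed to shield brain metastatic cells from plasmin. Expression was compared between 231-BR cells, a brain-seeking variant derived from the triple-negative breast cancer line MDA-MB-231, and MDA-MB-231 itself, called the parental line below, with 3 libraries of each. Both lines were grown in DMEM with serum, and only the 231-BR medium contained G418. The 231-BR cells were a gift from another laboratory and the MDA-MB-231 cells were purchased, so that selection for brain metastasis, the history of the stocks and G418 cannot be told apart. The replicates are described as independent samples, but separate cultures are not stated, and p-values then measure the spread between these libraries, which may be technical.

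Plasminogen is a circulating zymogen that is cleaved to the broad protease plasmin by the urokinase-type activator (PLAU) or the tissue-type activator (PLAT). The receptor PLAUR holds urokinase at the cell surface, where plasmin forms close to the matrix. Serpins are suicide inhibitors that trap a protease after it cleaves their reactive loop. In the brain, reactive astrocytes are a known source of plasminogen activator, plasmin is known to release Fas ligand and to cleave the adhesion molecule L1CAM, and neuroserpin (SERPINI1) and SERPINB2 have been described as protection for tumor cells in that tissue.

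Expression was given as FPKM, fragment counts scaled by transcript length and by the mapped reads of the library. The depth of the libraries is unknown, because FPKM keeps no read counts. The summed FPKM ran from 465020 to 472007 in the 231-BR libraries and from 486937 to 496420 in the parental libraries, and across 11124 genes the lowest correlation of log2 values within a line was 0.997. The cells had the profile of a mesenchymal carcinoma line, with VIM at 2553 FPKM in 231-BR cells against 2306 FPKM in the parental line, and CDH1, KRT5 and GRHL2 under 0.1 FPKM in both. EPCAM and ERBB2 were low but present, at 8.70 and 9.88 FPKM in 231-BR cells and 5.06 and 4.95 FPKM in the parental line. Of the markers of other cells, GFAP, AQP4 and SLC1A2 of astrocytes, STMN2 of neurons, PTPRC of leukocytes, VWF, CDH5 and TEK of endothelium, and COL1A2, PDGFRB and LUM of fibroblasts had means under 0.1 FPKM in both lines. Other markers on these lists were expressed and led their sums. CD68 had 82.9 FPKM in 231-BR cells against 63.5 FPKM in the parental line, and GJA1 had 17.9 against 10.1 FPKM. KDR had 1.52 against 0.523 FPKM, and COL1A1 0.517 against 0.930 FPKM. The neuron list was led by SYT1 in 231-BR cells (6.35 against 0.380 FPKM) and by GAD1 in the parental line (3.99 against 4.93 FPKM). Fold changes below are differences in log2(FPKM + 0.1), 231-BR against MDA-MB-231, from limma fitted over the 13465 genes whose mean FPKM reached 0.1, with Benjamini-Hochberg adjusted p-values. Errors are SDs over the 3 libraries of a line, and an exact permutation test of 3 libraries against 3 has 0.1 as its smallest p.

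**Figure D1:**
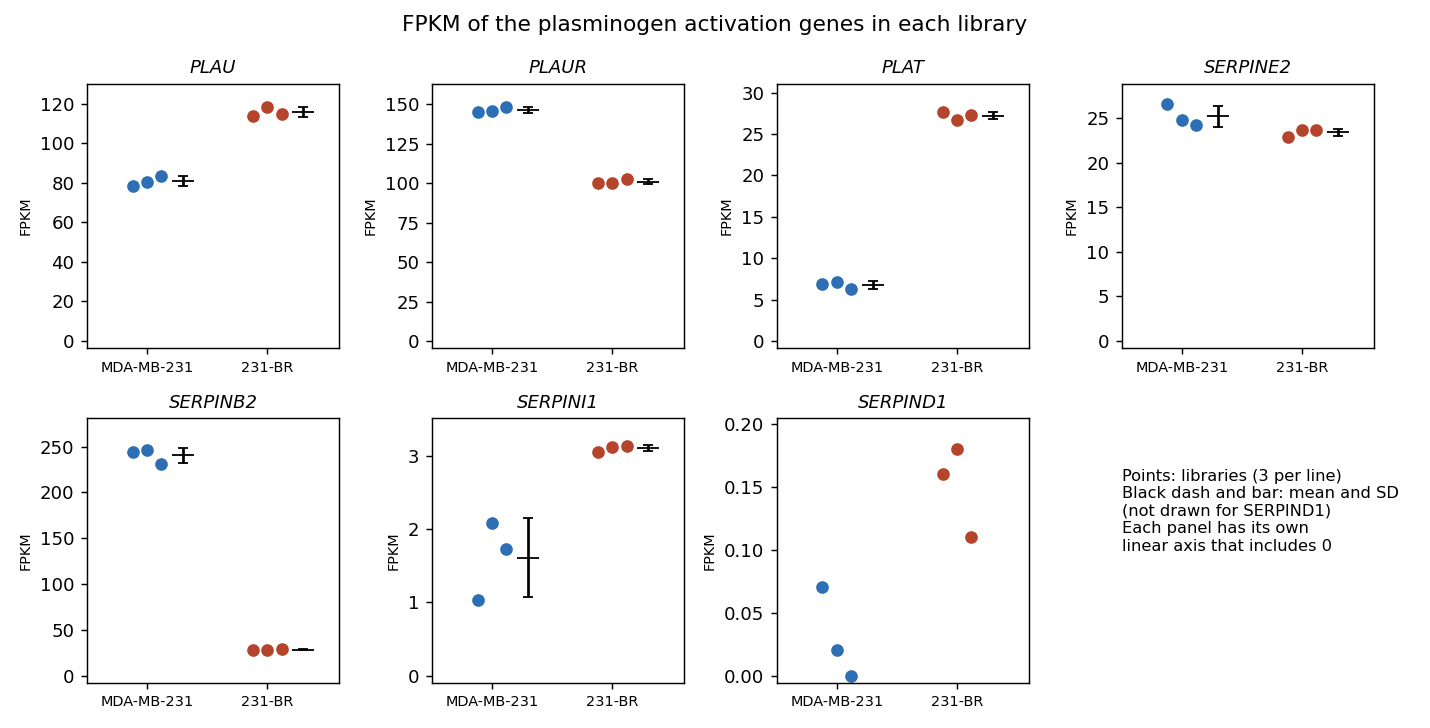
FPKM of each gene (vertical axes, linear, one scale per panel) in the 3 MDA-MB-231 libraries (blue) and the 3 231-BR libraries (red), with the mean and SD in black except for SERPIND1, which was not tested. PLAT lies between 26.7 and 27.7 FPKM in 231-BR cells against 6.27 to 7.14 FPKM in the parental line, and SERPINB2 between 28.0 and 29.2 FPKM against 231 to 246 FPKM.

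Both plasminogen activators were upregulated in 231-BR cells, 4.03-fold for the tissue-type activator and 1.43-fold for urokinase. In bulk RNA, a smaller number of expressing cells and less RNA per cell cannot be told apart, here and below. PLAT, the protease of clot lysis and of the nervous system, had 27.7, 26.7 and 27.3 FPKM in 231-BR replicates 1 to 3 and 6.87, 7.14 and 6.27 FPKM in those of the parental line. The lines did not overlap, and the means of 27.2 ± 0.478 and 6.76 ± 0.445 FPKM (SD, n = 3 each) were far outside each other's spread. Its log2 fold change was 1.996 (SE 0.049, limma adjusted p = 2.7e-10), larger in size than that of 95.1% of the genes tested. PLAT lies on chromosome 8.

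PLAU, the main activator on invading cells, had 114, 118 and 115 FPKM in the 231-BR libraries and 78.3, 80.5 and 83.3 FPKM in the parental libraries. Every 231-BR library was above every parental library, by a smaller step than for PLAT. The means were 115.7 ± 2.54 and 80.7 ± 2.51 FPKM (SD, n = 3 each). Its log2 fold change was 0.52 (SE 0.029, limma adjusted p = 8.4e-08), short of the fold of 2 that the study's criteria for differentially expressed genes (DEGs) ask for. PLAU lies on the forward strand of chromosome 10 at chr10:73909177-73917497 (GRCh38, GENCODE 29). It overlaps the lncRNA gene C10orf55, which had 0.450 ± 0.062 FPKM in 231-BR cells against 0.360 ± 0.131 FPKM in the parental line (SD, n = 3 each). Whether reads were counted by strand is not stated, and the levels of the overlapping gene were far below those of PLAU.

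PLAUR, the glycolipid-anchored receptor of urokinase, changed in the opposite direction to its ligand. It had 99.9, 99.9 and 103 FPKM in the 231-BR libraries and 145, 145 and 148 FPKM in the parental libraries. The 231-BR libraries were all lower, with means of 100.8 ± 1.63 and 146 ± 1.93 FPKM (SD, n = 3 each). Its log2 fold change was -0.54 (SE 0.023, limma adjusted p = 1.2e-08). In 231-BR replicates 1 to 3 the ratio of PLAU to PLAUR was 1.14, 1.19 and 1.12, and in the parental libraries it was 0.540, 0.553 and 0.561, so that ligand exceeded receptor on the FPKM scale in 231-BR cells and the receptor exceeded the ligand in MDA-MB-231 cells. This ratio differed 2.08-fold between the means, with p = 0.1 in the exact 2-sided permutation test, the smallest it can give. PLAUR lies on the reverse strand at chr19:43646095-43670547 (GRCh38, GENCODE 29).

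The 250 bases before each annotated start were searched for motif letters. Windows from RefSeq on GRCh38.p14 were at hand for 6 of the 7 genes, and that of PLAT was not analysed here. The first of the 5 motifs searched was TGANTCA, a loose spelling of the AP-1 site that allows any base in the middle. The E-box, the binding site of basic helix-loop-helix factors, was searched as CACGTG. The box read by the factor NF-Y was searched as CCAAT. The GC box known from Sp1 was searched as GGGCGG. The last, the TATA box of the core promoter, was searched as TATAAA. All were read on either strand, and no matches named here overlapped each other. The PLAU window at chr10:73910882-73911131, forward strand, held 3 GC boxes, ending 61, 46 and 35 bases before the start, and no other match. A second RefSeq start of PLAU lies upstream, and its window held a CCAAT match only. The PLAUR window at chr19:43670170-43670419, reverse strand, held a single match, TGAGTCA, 186 to 180 bases before the start. Among all 35116 start windows of the same length, 42.6% held GGGCGG and 6.57% held TGANTCA. These are matches of letters, and binding was not measured. Their part in the differences of PLAU and PLAUR was not tested.

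The serpins of the list did not move together. SERPINB2, the plasminogen activator inhibitor type 2, was the gene of the list with the largest change. It had 244, 246 and 231 FPKM in the parental libraries and 28.0, 28.0 and 29.2 FPKM in the 231-BR libraries. The gap between the lines was many times the range within either. The means of 240.5 ± 8.501 and 28.4 ± 0.722 FPKM (SD, n = 3 each) put SERPINB2 8.47-fold lower in 231-BR cells. Its log2 fold change was -3.08 (SE 0.032, limma adjusted p = 2.2e-12), larger in size than that of 97.9% of the genes tested. In order of expression among all 17039 genes, SERPINB2 went from rank 291 in MDA-MB-231 cells to rank 2978 in 231-BR cells. The gene lies on the forward strand at chr18:63871692-63903890 (GRCh38, GENCODE 29), and its RefSeq start window is chr18:63887455-63887704 on GRCh38.p14. The window is shown, 5′ to 3′ on the strand of the gene, as that of the gene of the list with the largest change.
SERPINB2: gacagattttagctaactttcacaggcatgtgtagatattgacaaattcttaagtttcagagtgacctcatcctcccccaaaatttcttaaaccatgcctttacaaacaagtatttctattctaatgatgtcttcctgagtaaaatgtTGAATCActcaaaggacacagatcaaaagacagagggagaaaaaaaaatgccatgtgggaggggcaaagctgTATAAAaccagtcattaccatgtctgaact
The capitals mark TGAATCA, a match to TGANTCA 102 to 96 bases before the start, and a TATA box 30 to 25 bases before it, a motif that 10.7% of all windows held. Of the 6 genes with a start window, SERPINB2 and PLAUR were the ones with a match to TGANTCA. The middle base differed, A in SERPINB2 and G in PLAUR. SERPINE2, also called lower, had no match to TGANTCA in either of its windows. The part of these matches in the SERPINB2 difference was not tested.

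SERPINE2, known as protease nexin 1, inhibits thrombin, urokinase and plasmin, and its level was close in the lines. The 231-BR libraries had 22.96, 23.7 and 23.7 FPKM and the parental libraries 26.6, 24.9 and 24.2 FPKM. The lines did not overlap, but the highest 231-BR library and the lowest MDA-MB-231 library were closer to each other than the MDA-MB-231 libraries were among themselves. The log2 fold change was -0.10 (95% interval -0.19 to -0.02, adjusted p = 0.031 from limma), and the means were 23.4 ± 0.422 and 25.2 ± 1.22 FPKM (SD, n = 3 each). The call was lost without any one of the 231-BR libraries and without MDA-MB-231 replicate 1, where limma's adjusted p was 0.055 to 0.10 and the log2 fold change -0.11 to -0.07. After median-of-ratios scaling and quantile normalization it was -0.19 and -0.16. SERPINE2 lies on the reverse strand at chr2:223975112-224039319 (GRCh38, GENCODE 29). One of its RefSeq start windows, chr2:224031479-224031728 on GRCh38.p14, is shown on the strand of the gene for its repeated letters, with matches in capitals.
SERPINE2: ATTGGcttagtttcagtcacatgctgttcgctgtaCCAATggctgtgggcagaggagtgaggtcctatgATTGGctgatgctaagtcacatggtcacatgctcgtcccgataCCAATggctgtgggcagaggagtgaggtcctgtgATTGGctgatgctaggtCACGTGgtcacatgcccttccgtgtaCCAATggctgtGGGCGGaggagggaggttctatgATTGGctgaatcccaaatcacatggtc
This window held 7 matches to CCAAT, which 32.0% of all windows held at least once, on alternating strands, besides an E-box and a GC box. The other start window of SERPINE2 held 2 GC boxes. Of the 7 GENCODE coding starts of the gene, 1 lay within 50 bases of the RefSeq start behind the window shown. For the other window it was 0 of 7.

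SERPINI1, or neuroserpin, inhibits the tissue-type activator and is known from neurons. It was expressed at a low level, with 3.06, 3.12 and 3.14 FPKM in the 231-BR libraries and 1.03, 2.08 and 1.73 FPKM in the parental libraries. All 231-BR libraries were higher, and the parental libraries differed among themselves by more than those of any other tested gene of the list relative to their mean. The means were 3.11 ± 0.042 and 1.61 ± 0.535 FPKM (SD, n = 3 each), a 1.93-fold difference. The log2 fold change was 0.96 (standard error 0.196, 95% interval 0.52 to 1.40, adjusted p = 0.0012 from limma), just under the DEG criterion of 1. Without MDA-MB-231 replicate 1, the lowest library, it was 0.68, and without replicate 2 or replicate 3 it was 1.16 and 1.03, past that criterion. After quantile normalization it was 0.62. The neuron markers listed beside it summed to 9.57 to 11.4 FPKM in 231-BR cells and 5.10 to 6.29 FPKM in the parental line, with SYT1 higher in 231-BR cells (6.35 against 0.380 FPKM), RBFOX3 at 0.127 against 0.010 FPKM, GAD1 and SNAP25 lower, and STMN2 under 0.1 FPKM in both lines. Their part in the SERPINI1 difference was not tested. SERPINI1 lies on the forward strand at chr3:167735243-167825568 (GRCh38, GENCODE 29), and its start window, chr3:167735471-167735720 on GRCh38.p14, held none of the 5 motifs. The GC content of this window was 64.8%, against 37.2% for SERPINB2 and a median of 58.0% over all windows.

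SERPIND1, heparin cofactor II, is a thrombin inhibitor made by the liver, and it was barely detected. The 231-BR libraries had 0.16, 0.18 and 0.11 FPKM and the parental libraries 0.07 and 0.02 FPKM and a listed 0. Every 231-BR library was above every parental library, at levels a few steps above the 0.01 to which the file is rounded. The mean over the 6 libraries was 0.09 FPKM, below the filter, and the gene was not tested. Where the filter was dropped, limma gave a log2 fold change of 0.97 and an adjusted p = 0.0087, and without MDA-MB-231 replicate 2 or 3 the gene passed the filter and was called higher. SERPIND1 lies at chr22:20773879-20787720 (GRCh38, GENCODE 29), within the span of PI4KA, which had 15.9 and 22.0 FPKM in 231-BR and MDA-MB-231 cells.

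Ordered by level, the genes ranked PLAU, PLAUR, SERPINB2, PLAT, SERPINE2, SERPINI1 and SERPIND1 in 231-BR cells. In MDA-MB-231 cells the order was SERPINB2, PLAUR, PLAU, SERPINE2, PLAT, SERPINI1 and SERPIND1. No neighbors in either order had overlapping libraries. The closest were SERPINB2 and PLAT in 231-BR cells, whose means of 28.4 and 27.2 FPKM were 1.04-fold apart. In MDA-MB-231 cells the smallest step was 1.64-fold, from SERPINB2 to PLAUR. These are levels per transcript length and not amounts of protein. The 7 genes together held 0.064% of the summed FPKM in each 231-BR library and 0.0997% to 0.103% in the parental libraries.

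To set the inhibitors against the activators within each library, the FPKM of SERPINB2, SERPINE2 and SERPINI1 was summed and divided by that of PLAU and PLAT. The sum does not hold every known inhibitor of these proteases. The serpins exceeded the activators in MDA-MB-231 cells, with ratios of 3.19, 3.12 and 2.87, and fell short of them in 231-BR cells, with 0.382, 0.377 and 0.394. The ratio was 7.96-fold lower in 231-BR cells by its means, and the log2 ratio differed by -2.99, with p = 0.1 in the exact 2-sided permutation test, the smallest it can give. Both sides of the ratio differed: the 3 serpins summed to 267 ± 9.21 FPKM in MDA-MB-231 cells and 54.9 ± 1.04 FPKM in 231-BR cells, and the activators to 87.4 ± 2.21 and 142.9 ± 2.08 FPKM (SD, n = 3 each). The ratio is one of mRNA levels, and the inhibitors differ in which protease they act on and in where they reside.

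**Figure D2:**
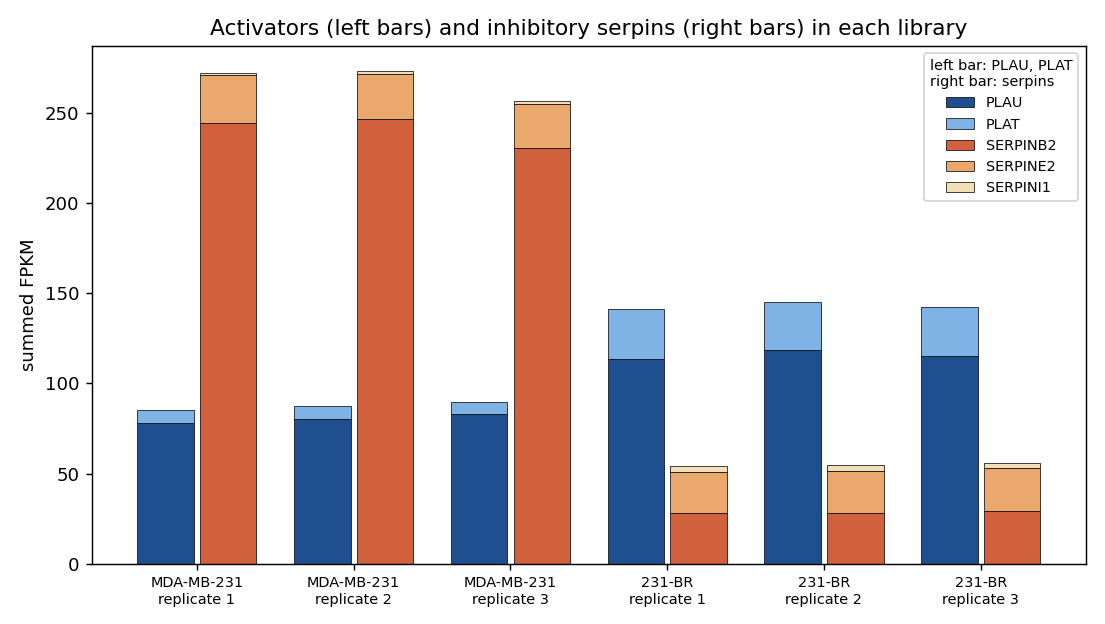
Summed FPKM (vertical axis, linear from 0) of PLAU and PLAT (left bar of each pair, blues) and of SERPINB2, SERPINE2 and SERPINI1 (right bar, reds) in each of the 6 libraries. The serpin bars reach 257 to 273 FPKM in the parental line and 54.0 to 56.0 FPKM in 231-BR cells, where the activator bars of 141 to 145 FPKM are higher.

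The makeup of both sums differed as well. In 231-BR replicates 1 to 3, PLAT made up 19.6%, 18.4% and 19.2% of the activator sum, against 8.07%, 8.15% and 7.002% in the parental libraries. SERPINB2 made up 89.96% ± 0.161 of the 3-serpin sum in MDA-MB-231 cells and 51.7% ± 0.552 in 231-BR cells (SD, n = 3 each). The share of SERPINE2 was 9.44% ± 0.342 in MDA-MB-231 cells and 42.7% ± 0.516 in 231-BR cells (SD, n = 3 each), at nearly the same FPKM. SERPINI1 remained the smallest part, at 0.605% ± 0.200 and 5.66% ± 0.047 (SD, n = 3 each).

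Of the 7 genes, 6 could be tested, and 3 were higher (PLAT, SERPINI1 and PLAU) and 3 lower (SERPINB2, PLAUR and SERPINE2) in 231-BR cells, by limma's adjusted p under 0.05. Over all genes tested, 77.3% passed this threshold, 44.4% with higher and 32.9% with lower expression, and a call alone is therefore common. The lines did not overlap for any of the 7 genes, where 78.4% of the genes tested did not overlap. The full DEG criteria, which also ask for a log2 fold change beyond 1 in size and for FPKM values of 1 or more, read here as a mean of 1 or more in both lines, were met by PLAT and SERPINB2, 2 of the 6, against 6.45% of all genes tested. The 6 genes had a median log2 fold change of 0.21, beside 0.08 for all genes tested.

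**Figure D3:**
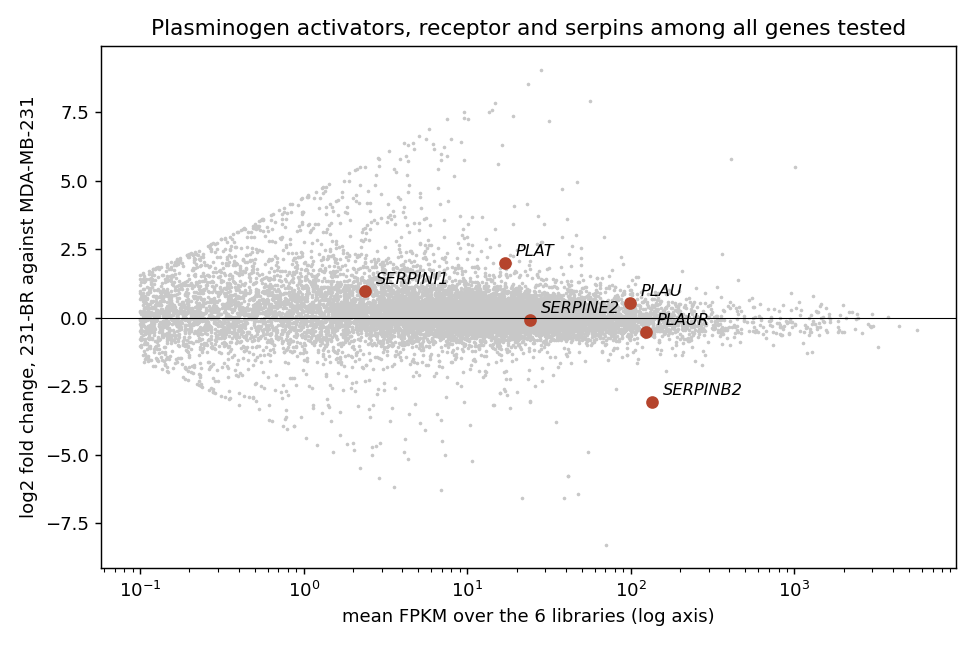
Log2 fold change of each gene tested (vertical axis) against its mean FPKM over the 6 libraries (horizontal log axis), with the 6 tested genes in red. SERPINB2 at -3.08 and PLAT at 1.996 lie toward the edges of the cloud, PLAU at 0.52 and PLAUR at -0.54 lie above and below 0, and SERPINE2 at -0.10 lies within its center.

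A list of 55 other genes of the plasminogen system was examined beside them. Of these, 51 had a row in the matrix and 35 were tested, with 12 higher and 21 lower in 231-BR cells by the same threshold in limma, 94.3% of those tested beside 77.3% of all genes tested. Their median log2 fold change was -0.21, beside 0.08 for all genes tested. The DEG criteria were met by the higher genes SPINT2, TFPI2 and THBD, and VLDLR and ITGAV were among the lower genes that met them. Plasminogen itself (PLG) had 0.013 FPKM in 231-BR cells against 0.020 FPKM in the parental line, and the plasmin inhibitor SERPINF2 had 0.047 and 0.053 FPKM. Neither was tested, and both are known as liver products.

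Among the other inhibitors, the Kunitz-type and serpin genes that were called differed in direction. SPINT2, a Kunitz inhibitor of cell-surface serine proteases, rose from 10.1 ± 0.255 to 82.4 ± 0.841 FPKM (SD, n = 3 each), with a log2 value of 3.02 for the change and an adjusted p = 1.8e-12 in limma. TFPI2, a matrix-bound Kunitz inhibitor of plasmin, rose to 30.2 ± 0.293 FPKM from 9.18 ± 0.269 FPKM (SD, n = 3 each). THBD, the thrombin receptor thrombomodulin that promotes activation of the antifibrinolytic carboxypeptidase, rose to 16.4 ± 0.709 FPKM from 6.56 ± 0.263 FPKM (SD, n = 3 each). SPINT1 was also higher, at 0.700 against 0.150 FPKM. Of the tested serpins on this list, SERPINB8 and SERPINE3 were lower, the latter close to the filter at 0.097 against 0.203 FPKM. SERPINB6 had a log2 fold change of 0.01, with a 95% interval from -0.06 to 0.08 and a sign that turned with the scaling.

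Plasminogen binding proteins differed between the lines by log2 values within -0.67 and 0.43. ENO1, a glycolytic enzyme that also binds plasminogen at the surface, had 1431 ± 23.02 and 1460 ± 47.1 FPKM (SD, n = 3 each) in 231-BR and MDA-MB-231 cells, and its direction turned after quantile normalization. The annexin A2 heterotetramer is a joint docking site of PLAT and plasminogen, and its subunits moved apart. ANXA2 rose from 1227 ± 9.74 to 1654 ± 30.4 FPKM and S100A10 had 429.5 ± 10.8 FPKM in the parental line and 269.7 ± 4.28 FPKM in 231-BR cells (SD, n = 3 each), log2 fold changes of 0.43 and -0.67. Of the 8 binding proteins tested, 2 were higher and 5 lower, or 87.5% called beside 77.3% of all genes tested.

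Partners of the urokinase receptor and the receptors that clear protease and serpin complexes were mostly lower, 11 of the 13 tested. LRP1 and LYPD3 were higher, beside 32.9% lower and 44.4% higher among all genes tested. LYPD3 was close to the filter, at 0.340 FPKM in 231-BR cells against 0.120 FPKM in the parental line. So was ITGB3, counted among the lower genes, at 0.160 against 0.290 FPKM. LRP1, the main endocytic receptor for activators bound to inhibitors, rose from 0.273 ± 0.038 to 1.61 ± 0.035 FPKM (SD, n = 3 each), with a log2 value of 2.203 for the change and an adjusted p = 7.0e-08 in limma. With a pseudocount of 1, the value was 1.04. VLDLR, a clearance receptor of the same family, had 4.84 ± 0.166 FPKM in the parental line and 1.25 ± 0.021 FPKM in 231-BR cells (SD, n = 3 each), or -1.88 as a log2 fold change. ITGAV, an integrin subunit of vitronectin receptors, and ITGB1 were lower by log2 fold changes of -1.25 and -0.96. Vitronectin (VTN), which binds PLAUR, had 0.0067 FPKM in both lines. Of the plasmin targets proposed in the brain, L1CAM had 2.77 ± 0.115 FPKM in 231-BR cells against 3.63 ± 0.274 FPKM in the parental line (SD, n = 3 each), with a log2 value of -0.38 for the change and an adjusted p = 9.2e-04 in limma, and -0.66 after quantile normalization. FAS, the receptor of Fas ligand, rose with a log2 fold change of 1.55 (1.03 with a pseudocount of 1), and FASLG, at 0.033 and 0.013 FPKM, was not tested.

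**Figure D4:**
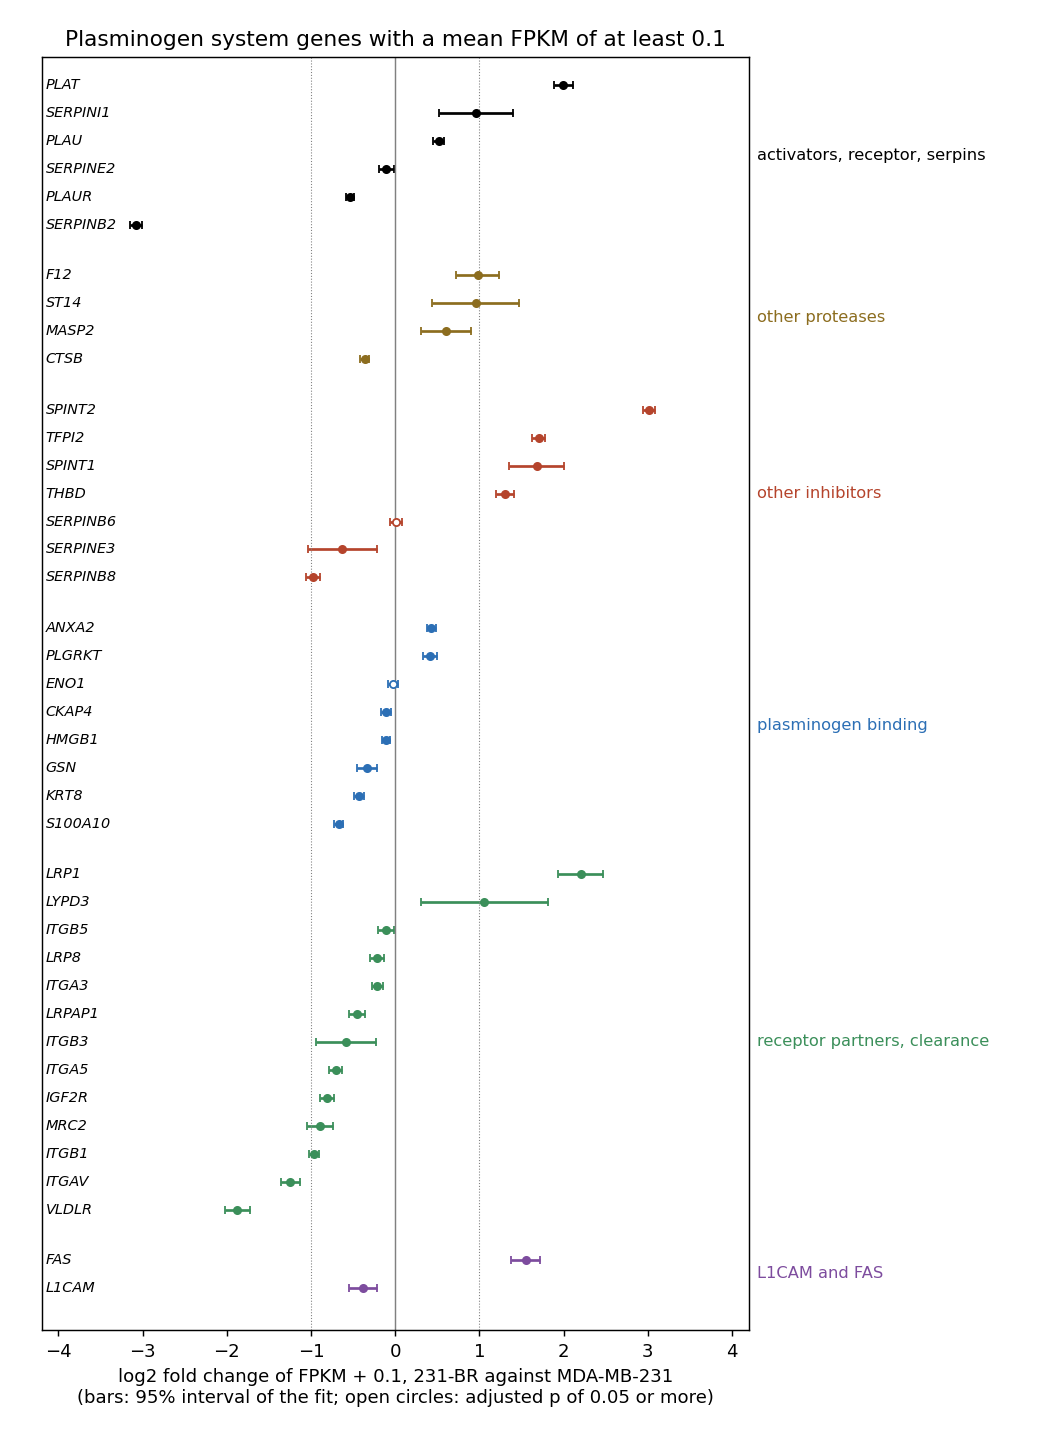
Log2 fold change of FPKM + 0.1 (horizontal axis) with its 95% interval for the 6 tested genes of the list (black, top) and other tested genes of the plasminogen system, grouped by role. Of the genes drawn, SERPINB2, VLDLR and ITGAV lie farthest to the left at -3.08, -1.88 and -1.25, SPINT2, LRP1 and PLAT farthest to the right at 3.02, 2.203 and 1.996, and open circles are the genes not called.

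Of 32 other serpins, 25 had a row in the matrix and 10 were tested, with 4 higher and 5 lower in 231-BR cells, 90.0% of those tested beside 77.3% of all genes tested. Tested genes such as SERPINE3, SERPINB6 and SERPINB8 are also among the inhibitors above. Their median log2 fold change was -0.23. SERPINF1, the anti-angiogenic factor PEDF that does not inhibit proteases, rose from 0.393 ± 0.101 to 5.23 ± 0.802 FPKM (SD, n = 3 each), with a log2 value of 3.44 for the change and an adjusted p = 1.7e-08 in limma. SERPINB7 rose with a log2 fold change of 2.13 and SERPINB9, the granzyme B inhibitor, with 0.40, which was 0.03 and not called after quantile normalization. SERPINA1 (alpha-1-antitrypsin) had 0.677 ± 0.168 FPKM in 231-BR cells against 1.94 ± 0.274 FPKM in the parental line (SD, n = 3 each), or -1.40 as a log2 fold change, and SERPINB8 was lower by a log2 fold change of -0.98. With a pseudocount of 1, SERPINF1, SERPINB7 and SERPINA1 had 2.16, 1.27 and -0.81.

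SERPINB2 lies in a cluster of clade B serpins on chromosome 18, and its neighbors there did not follow it as a block. In chromosomal order, the 8 genes of the cluster in the matrix were SERPINB5, SERPINB12, SERPINB4, SERPINB3, SERPINB7, SERPINB2, SERPINB10 and SERPINB8. SERPINB7, the tested gene next to SERPINB2 on one side, had 2.77 ± 0.090 FPKM in 231-BR cells against 0.557 ± 0.025 FPKM in the parental line (SD, n = 3 each), 4.97-fold higher where SERPINB2 was 8.47-fold lower. SERPINB8 had 20.9 ± 0.647 and 41.3 ± 1.65 FPKM (SD, n = 3 each) in 231-BR and MDA-MB-231 cells. SERPINB10 was between 0 and 0.02 FPKM in 231-BR cells and between 0.06 and 0.12 FPKM in the parental line, and SERPINB5 was between 0.08 and 0.14 FPKM in 231-BR cells and listed at 0 in MDA-MB-231 cells. Neither passed the filter. HMSD, the tested gene next to SERPINB2 on the other side, had a log2 fold change of -0.50.

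**Figure D5:**
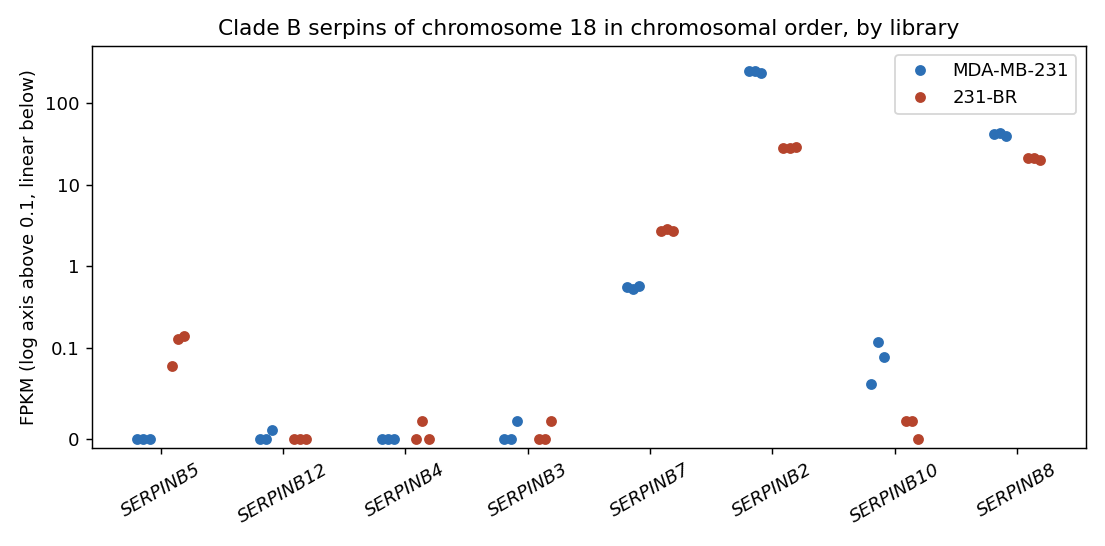
FPKM (vertical axis, logarithmic above 0.1 and linear below) of the 8 clade B serpins of chromosome 18 in chromosomal order, in the 3 MDA-MB-231 libraries (blue) and the 3 231-BR libraries (red). SERPINB2 and SERPINB8 are lower and SERPINB7 is higher in every 231-BR library, while SERPINB12, SERPINB4 and SERPINB3 stay at 0.02 FPKM or less.

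The tested genes on either side of the other genes were compared in the same way, in the RefSeq gene order. Beside PLAT, AP3M2 and IKBKB had log2 fold changes of -0.26 and -0.10, against 1.996 for PLAT. Beside PLAU, CAMK2G and VCL had 0.31 and 0.40, close to the 0.52 of PLAU. PLAUR lay between CADM4, with 3.66, and SMG9, with -0.43. PDCD10, next to SERPINI1, had 0.32, and GOLIM4 on the other side 0.11. MRPL44 and CUL3 beside SERPINE2 had 0.21 and 0.14. Next to SERPIND1, MED15 had -0.71 and SNAP29 0.01, the latter not called. RefSeq lists 4 further genes that overlap PLAUR, SERPINE2 or SERPINB2, which were not analysed here.

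For the genes past the DEG criteria, the most similar profiles were sought among 11417 other genes, by the Euclidean distance of centered log2 values over the 6 libraries. The nearest to PLAT were AIF1L, IGDCC4 and LGR4, at distances of 0.064, 0.070 and 0.092 and log2 fold changes of 1.96, 1.96 and 1.98. The nearest to SERPINB2 were TRIM16, TRIM16L and ICAM1, at distances of 0.128, 0.159 and 0.178 and log2 fold changes of -3.07, -3.03 and -3.20. TRIM16 and TRIM16L are near copies, and their reads could have been divided between them. With 3 libraries in each of 2 lines, this distance mostly ranks genes by a like fold change.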

How the data were processed

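Poly(A)-selected RNA was sequenced in 3 libraries for each of the lines, 231-BR and MDA-MB-231. The authors filtered the reads, mapped them with HISAT2 2.0.4 to the genome and with Bowtie2 2.2.5 to a gene set, and deposited FPKM values per gene with 2 decimals; the program that computed the FPKM is not given in the sources used here. The submitters' processing notes name GRCh38.p12. Libraries were grouped by their titles, since another label field counts the line's name up from replicate to replicate. The study tested read counts, whereas only FPKM was used here.

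The lines were compared in limma 3.58.1 (R 4.3.3) on log2(FPKM + 0.1), with the line as the single term and the eBayes trend option. Genes had to average 0.1 FPKM over the 6 libraries, and p-values were adjusted by Benjamini-Hochberg over all 13465 of them. The fit was tested on simulated data first. Single values were compared by exact permutation tests (scipy 1.17.1). Sequences and gene order came from RefSeq (GRCh38.p14), gene positions from GENCODE 29. The genes described and the lists were chosen with earlier results of these data known. Named genes were the 7 genes, 10 set system genes, the 3 largest changes per list and direction that met the DEG criteria or, where fewer than 3 did, an adjusted p under 0.05, neighbors and overlapping genes, and the 3 nearest profiles. SPINT1, SERPINF2, SERPINB6, SERPINE3, ITGB1, ITGB3, LYPD3 and the chromosome 18 serpins outside this rule were named after their values were seen. The inhibitor to activator ratio is given in an alternative form planned beside the main one, and a gene of the lists is not reported here by name, although the counts include it. The study's DEG criteria do not say in which samples FPKM must reach 1, and requiring it of both lines' means is a choice made here, which leaves out genes that are low in 1 line, such as LRP1, FAS and SERPINF1.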

Additional observations from a re-analysis of the deposited data

How the results depend on the processing

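The alternatives were other pseudocounts, filters and scalings, eBayes without a trend, a replicate block, and each library left out. Of the 321 values for 23 named genes under these settings, 312 kept direction and side of the threshold. These 23 leave out genes named after their values were seen, such as SPINT1, ITGB1 and SERPINB6, and SERPINB6 changed sign in some settings. ENO1 turned from -0.03 to 0.11 after quantile normalization and was called lower (-0.11) after median-of-ratios scaling. Quantile normalization moved the median over all genes by -0.14 (log2), and under it SERPINB9 was no longer called. SERPINE2 lost its call in 6 of 14 settings, 4 of them with a library left out, and kept its direction in all 14. For PLAU, PLAUR, PLAT, SERPINB2 and SERPINI1 the call held in all 14, with log2 fold changes from 0.44 to 0.55, -0.62 to -0.49, 1.86 to 2.04, -3.16 to -3.03 and 0.62 to 1.16. SERPINI1 met the DEG criteria with a pseudocount of 0.01 and without MDA-MB-231 replicate 2 or 3. With a filter at a mean FPKM of 1, 7 instead of 12 other system genes were higher, because fewer genes were tested. The log2 inhibitor to activator difference was -2.99 with the 3 serpins described.

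The replicate numbers did not pair the libraries: deviations of same-numbered libraries correlated at 0.087, -0.040 and -0.106, and 231-BR replicate 2 correlated best with MDA-MB-231 replicate 3, at 0.183. With the replicate block, 3 genes of the list were higher and 3 lower, and 12 and 21 of the other system genes, the numbers found without it. The unknown depth gives no error for genes near 0, such as SERPIND1.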
